A study of Sus scrofa with 4 samples.

Results

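The extracellular layer of WNT signalling was examined in pig pancreas and in porcine pancreatic ductal organoids (PPDO). A gene was included when its feature name was that of a WNT ligand, an R-spondin, a frizzled receptor, LRP5 or LRP6, or a secreted antagonist of the SFRP, DKK, FRZB or WIF1 kind. This rule found 44 of the 30282 genes in the tables, namely 18 WNT ligands, 4 R-spondins, 10 frizzleds, 2 LRP co-receptors and 10 secreted antagonists. Their counts were spread over 87 features, since the annotation used for the counting lists isoform features and extensions of the 3′ ends separately, and these were summed per gene. WNT4 was not among the feature names and was not analysed here.

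Single cells of 2 PPDO libraries and 2 primary pancreas libraries were sequenced by droplet-based 3′ RNA sequencing. PPDO are epithelial cultures grown in extracellular matrix from hand-picked pancreatic ducts. In the study PPDO came from late postnatal and adult pigs and were used at different passages. The labels give neither line nor passage for a library, so that line, age and passage cannot be told apart from the replicate. All PPDO grew in a medium with conditioned medium that carries WNT3A, R-spondin and noggin proteins, together with EGF, FGF10 and an inhibitor of TGFβ receptors, so the cultures received WNT3A and R-spondin from outside while the primary pancreas did not. The primary libraries came from late postnatal pigs of German landrace background, a wild-type animal processed mainly as picked ducts and an animal with an INS-eGFP transgene, in which the porcine insulin promoter drives eGFP, processed as a pool of sorted ductal, eGFP-positive and unsorted cells. Because cells were picked and sorted, the number of cells of a type does not describe the organ. By the methods of the study, the PPDO libraries are separate lines and the primary libraries separate pigs, so the spread between libraries of a group holds line, age and passage, or animal and preparation, together.

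WNT proteins are secreted lipid-modified ligands that bind frizzled receptors, and with the co-receptors LRP5 or LRP6 they stabilise β-catenin, which then works with LEF and TCF factors on target genes. R-spondins bind LGR receptors and hold back the ubiquitin ligases RNF43 and ZNRF3, which otherwise remove frizzleds from the membrane. SFRP proteins, FRZB and WIF1 bind WNT ligands outside the cell, whereas DKK1, DKK2 and DKK4 bind LRP5 and LRP6. In epithelial organoid cultures WNT and R-spondin are common medium components.

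The 4 libraries held between 6999 and 9853 barcodes and between 87043513 and 366263520 unique molecular identifiers (UMIs, counted molecules). After filtering, 8885 and 7337 PPDO cells and 5671 and 4261 primary cells remained, with between 10 and 23 barcode sequences shared by any pair of libraries. Primary clusters were named from marker lists as ductal-like (2161 and 1171 cells in primary pancreas 1 and 2), endocrine-like (101 and 2203), endothelial-like (1073 and 264), smooth muscle and pericyte-like (438 and 41), fibroblast-like (314 and 7), schwann-like (345 and 1), myeloid-like (457 and 65), T and NK-like (252 and 73) and acinar-like (108 and 56). A further 422 and 380 cells stayed unnamed. The ductal-like cells of the primary libraries fell into different clusters, and 0 of these 5 clusters held 20 or more cells of both libraries. Against the labels, the ductal marker list summed to 971 and 867 CPM in PPDO and to 28092 and 32491 CPM in the primary ductal-like cells, with none of its 8 matched genes at 0. SLC4A4 alone made 22566 and 26269 CPM of the ductal-like sums and 418 and 327 CPM in PPDO. CFTR, SCTR, SOX9 and PKHD1 lay between 0.549 and 3.30 CPM in PPDO and between 322 and 2590 CPM in ductal-like cells. KRT7 differed less, at 389 and 384 CPM in PPDO against 550 and 595 CPM. Beta cell markers summed to 101 and 7796 CPM in the ductal-like sums and to 2.07 and 1.40 CPM in PPDO, and their part in the results was not tested. Levels are given as CPM, the UMIs of a gene per 1000000 UMIs of the cells summed. RNA from broken cells, estimated from insulin UMIs in immune cells, made up 2.32% and 3.14% of their UMIs, and the level that this free RNA alone would give is quoted where it matters. Levels by class and cluster are descriptions with no test, because cells of a library are not replicates. Intervals are exact 95% Poisson limits. Where no UMI was counted, the limit given is the level that 3 UMIs would make, and both cover counting error only.

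In the primary pancreas many of the genes for ligands and antagonists were highest in fibroblast-like, smooth muscle and pericyte-like or schwann-like cells, as was RSPO3 in primary pancreas 1, whereas RSPO2 was highest in T and NK-like cells. Of the 44 genes, 21 had their highest level of primary pancreas 1 in the fibroblast-like cells, among them 11 of 18 ligands and 5 of 10 antagonists. The share of all genes that were highest in these cells was not counted, so this count describes the 44 genes only. It includes genes with very few UMIs in primary pancreas 1, such as WNT1 at 0.323 CPM and RSPO1 at 0.645 CPM. In this library the fibroblast-like cells had 258 CPM of SFRP1, 243 CPM of SFRP4 and 135 CPM of SFRP2, 3 secreted frizzled-related proteins. They also had 203 CPM of DKK2, 86.8 CPM of RSPO3, 82.9 CPM of WNT5B and 36.1 CPM of WNT6. The ligands WNT2B and WNT5A followed with 31.3 and 21.0 CPM. The receptors FZD1 and FZD2 stood at 118 and 122 CPM in the same cells. Primary pancreas 2 held 7 fibroblast-like cells with 68867 UMIs in all, in which 24 UMIs of RSPO3, 23 of DKK2, 9 of FZD1, 8 of SFRP4, 7 each of SFRP2, WNT5B and DKK3 and 6 of WNT5A were counted. FZD2 and WNT6 had no UMI in these 7 cells, which allows up to 43.6 CPM at 3 UMIs. The fibroblast-like levels therefore rest on primary pancreas 1, and SFRP1, SFRP2, SFRP4, RSPO3, WNT5A, WNT2B, FZD2 and WNT9A are named here after their values were seen.

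**Figure D1:**
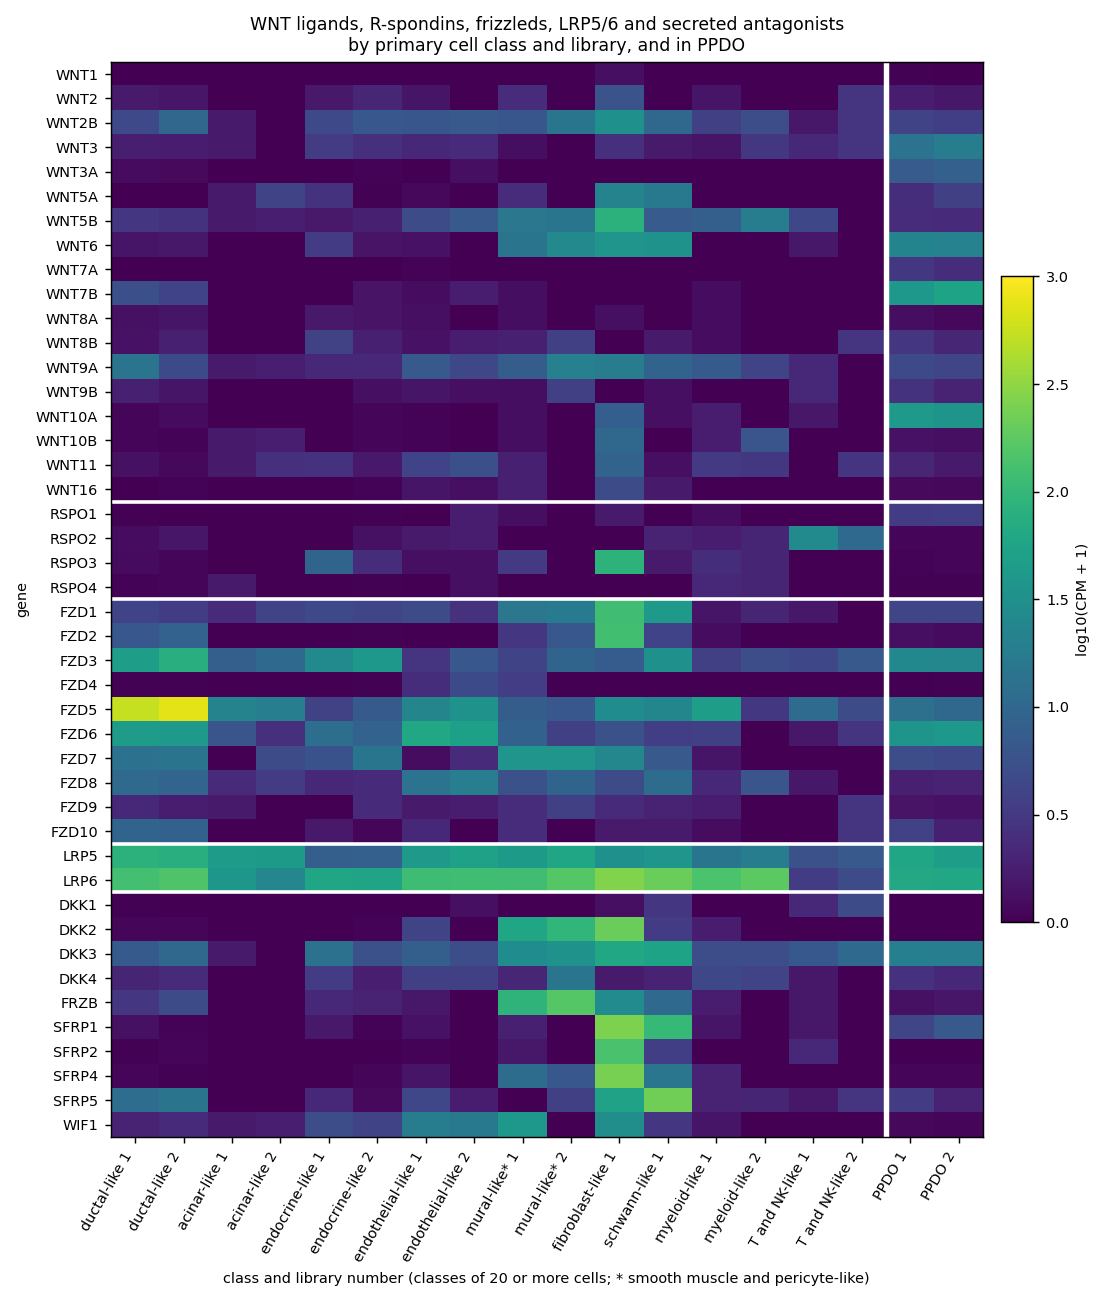
Heat map of the 44 genes (rows, grouped by role with white lines between ligands, R-spondins, frizzleds, LRP co-receptors and antagonists) in the primary cell classes of 20 or more cells and in PPDO (columns, with the library number); colour is log10(CPM + 1). The ductal-like columns are brightest for FZD5 (550 and 742 CPM), the fibroblast-like column for SFRP1, SFRP4, LRP6 and DKK2 (203 to 272 CPM), and the PPDO columns are brighter than the ductal-like columns for WNT3, WNT6, WNT7B and WNT10A.

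Smooth muscle and pericyte-like cells carried a set of antagonists in both primary libraries. FRZB was at 87.9 CPM (78.4 to 98.1) in primary pancreas 1 and 162 CPM (123 to 208) in primary pancreas 2, and this class was the highest for FRZB in both. DKK2 was at 57.9 CPM (50.3 to 66.4) and 93.1 CPM (64.5 to 130). DKK3, the divergent member of the Dickkopf family, was at 27.4 and 32.9 CPM. Both libraries thus showed these genes in the class, although the second had 41 cells. The ligand WNT6 was at 13.2 CPM (9.66 to 17.5) and 24.6 CPM (11.3 to 46.8), and WNT5B at 14.3 and 13.7 CPM. The receptors FZD7 and FZD1 were at 35.3 and 35.6 CPM and at 14.3 and 16.4 CPM. WIF1 differed between the libraries, with 39.2 CPM (33.0 to 46.2) in primary pancreas 1 and no UMI in primary pancreas 2, which allows up to 8.21 CPM at 3 UMIs. Schwann-like cells, found in primary pancreas 1 with a single further cell in primary pancreas 2, had 224 CPM of SFRP5, 102 CPM of SFRP1, 54.0 CPM of DKK3, 41.1 CPM of FZD1 and 32.9 CPM of WNT6.

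The remaining classes had few of these genes. Endothelial-like cells led for FZD6, a receptor mostly linked with β-catenin-independent signalling, with 59.7 CPM (55.4 to 64.2) and 47.9 CPM (40.3 to 56.5). Within them a cluster led by SEMA3G and GJA5 reached 199 and 283 CPM in 148 and 21 cells. The lead of the class over the ductal-like cells, at 44.8 and 40.7 CPM, rests on this small cluster, which is counted in the class value. FZD8 was at 13.0 and 18.1 CPM in endothelial-like cells and WIF1 at 17.3 and 15.4 CPM. Endothelial-like cells thus carried a receptor and an antagonist at a similar level in both libraries. RSPO2 was highest in T and NK-like cells, with 25.8 CPM (18.8 to 34.5, 45 UMIs) and 9.68 CPM (3.14 to 22.6, 5 UMIs), against 0.255 and 0.520 CPM in ductal-like cells. Free RNA alone would give 0.0234 and 0.0172 CPM of RSPO2. Endocrine-like cells had 25.4 and 38.8 CPM of FZD3 and 4.73 and 13.7 CPM of FZD7. WNT5B was at 7.11 and 17.5 CPM in myeloid-like cells, the second value being the highest among the classes of 20 or more cells in that library.

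Ductal-like cells stood out for receptors. FZD5, a receptor of the β-catenin branch (ENSSSCG00000016140, on chromosome 15 from 110913990 to 110921388 of Sscrofa11.1 in RefSeq), had 550 CPM in primary pancreas 1 and 742 CPM in primary pancreas 2. The other named classes of 20 or more cells lay between 2.96 and 46.1 CPM in the first library and between 2.06 and 33.9 CPM in the second, so no other named class overlapped with the ductal-like cells, while the unnamed cells together had 122 and 132 CPM. Free RNA alone would give 7.79 and 4.82 CPM of FZD5. After thinning to 3000 UMIs per cell, 69.7% of 2048 and 85.6% of 1171 ductal-like cells had an FZD5 UMI, against 2.95% of 237 and 2.74% of 73 T and NK-like cells (93.1% and 99.2% against 6.33% and 2.74% before thinning). Across the ductal-like clusters of primary pancreas 1, FZD5 ranged from 275 to 576 CPM, and it was at 756 and 314 CPM in the clusters of 1107 and 64 cells of primary pancreas 2. The lowest of these values was still above every other named class.

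The co-receptors were less restricted than FZD5. LRP5 was at 83.2 and 77.3 CPM in ductal-like cells, which was the highest value of a named class in both libraries, with smooth muscle and pericyte-like cells at 42.0 and 57.5 CPM. LRP6 was at 126 and 149 CPM in ductal-like cells and between 115 and 272 CPM in the endothelial-like, smooth muscle and pericyte-like, fibroblast-like, schwann-like and myeloid-like cells of primary pancreas 1, so ductal-like cells were not the highest. T and NK-like cells were the lowest of both libraries for LRP6, at 2.29 and 3.87 CPM. FZD3 was at 45.9 and 76.2 CPM in ductal-like cells and was highest there among the named classes of both libraries. FZD6 was at 44.8 and 40.7 CPM and FZD7 at 12.3 and 13.4 CPM in the same cells. Frizzled genes in the primary ducts were thus led by FZD5, with FZD3, FZD6 and FZD7 as further genes at 10 CPM or more in both libraries. SFRP5 was the only antagonist that reached 10 CPM in the ductal-like cells of both libraries, at 10.8 and 13.3 CPM, and no ligand or R-spondin did. WNT9A differed between the libraries, at 13.1 CPM in the first and 3.76 CPM in the second, while WNT7B was at 4.45 and 3.001 CPM.

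A small unnamed cluster with TCN1, TM4SF20, S100A2, ONECUT2 and LGR5 among its leading genes had another set of these genes. It held 149 and 17 cells, and 6 of 8 ductal markers passed in it, but its low depth kept it without a name. The low depth was that of primary pancreas 1, where its median was 1219 UMIs against 10169 in the library, while the 17 cells of primary pancreas 2 had 22825 against 23651. At a finer clustering, 28 and 17 cells formed a cluster named ductal-like with a median of 21802 UMIs in primary pancreas 1. A few of these 28 cells came from outside the 149, and the rest of the 149 were 124 shallow cells with a median of 1083 UMIs. In the 28 cells WNT7B was at 52.7 CPM and FZD10 at 71.3 CPM, and the 124 shallow cells had no UMI of WNT7B or WNT7A. The levels that follow are those of the 149 and 17 cells, so in primary pancreas 1 they mix deep and shallow cells. WNT7B was at 40.4 CPM (27.6 to 57.0) and 37.9 CPM (20.7 to 63.5) in this cluster and FZD10 at 63.1 CPM (46.8 to 83.2) and 62.2 CPM (39.4 to 93.3). Both genes were higher there than in the ductal-like cells of the same library, which had 8.32 and 7.44 CPM of FZD10, and the counting intervals did not overlap. WNT7A was at 8.84 CPM (7 UMIs) and 5.41 CPM (2 UMIs), while the ductal-like cells had 1 UMI of it in all. SFRP5 reached 46.7 CPM in primary pancreas 1 and 5.41 CPM (2 UMIs) in primary pancreas 2. FZD5 stood at 266 and 327 CPM, below the 550 and 742 CPM of the ductal-like class. Clustering did not use the 44 genes, and the cluster is named here after its values were seen.

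PPDO were compared with primary ductal-like cells on counts summed per library (edgeR quasi-likelihood test, 2 against 2, Benjamini-Hochberg over all genes). In PPDO 14 of the 40 tested genes were higher, most of them WNT ligands, and 10 were lower, 5 of these being frizzleds. Of all 23510 genes tested, 43.7% were called, 22.8% as higher and 20.9% as lower, and the median log2 fold change was 0.09 over the tested WNT genes and 0.01 over all genes. Markers of other cell states differed between the same sums. A list of basal epithelial genes summed to 8844 and 11512 CPM in PPDO and to 162 and 116 CPM in ducts, with KRT5, a keratin of basal cells, at 5420 and 7634 CPM against 0.325 and 0.280 CPM, and none of its 6 matched genes was at 0. A list of glycolysis enzymes summed to 13071 and 14415 CPM against 1808 and 1965 CPM. Both lists were written for PPDO with earlier results of these cells known, and their part in the WNT results was not tested. The calls among ligands were all in a single direction, with 11 of 17 tested ligands higher and 0 lower, whereas 0 of 9 frizzleds were higher and 5 lower. Of the antagonists 2 were higher and 4 lower among 8 tested, of the R-spondins 1 of 4 was higher, and of the LRP genes 1 of 2 was lower. WNT5A, WNT7A, WNT16 and RSPO1 had 1, 1, 3 and 2 UMIs in all ductal-like cells and passed the filter on low counts only through PPDO. Calls of these genes could only be higher, so they do not count towards a single direction. DKK2 passed the filter only through the ducts and could only be called lower. WNT1, SFRP2, DKK1 and FZD4 had too few UMIs to be tested, and FZD4 has no extension feature and 69 UMIs over all barcodes. Without PPDO 1 the counts were 10 higher and 5 lower, and without PPDO 2 they were 10 higher and 4 lower, each of 36 tested, where the remaining PPDO library was assumed to vary like the primary ones. In these fits 13.3% and 11.7% of all genes were higher and 11.0% and 10.6% lower. Fold changes carry TMM scaling, which raised the median of all genes by 0.45 on the log2 scale over scaling by library size alone. With library size alone, 11 genes were higher and 12 lower, where 14.0% and 29.5% of all genes were. Among the called genes of the whole fit, the share that was higher went from 52.3% to 32.2%. The SE was derived from the fold change and its F statistic.

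**Figure D2:**
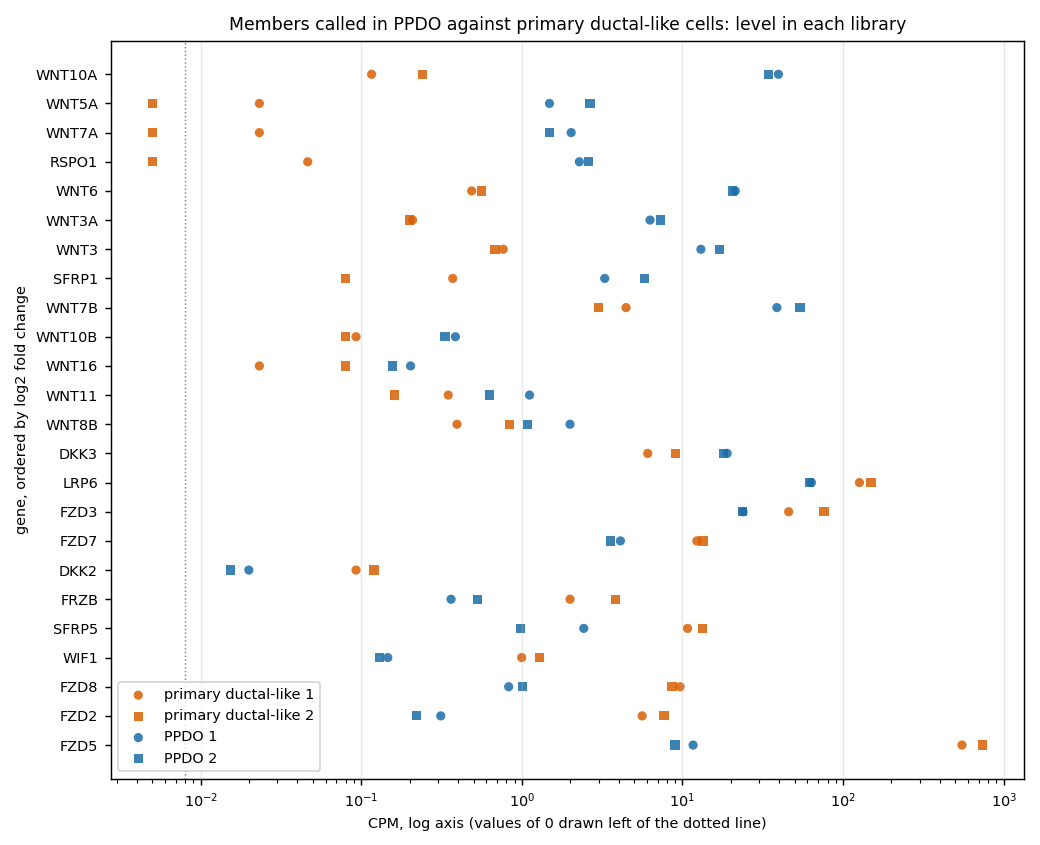
Level of each of the 24 called genes (rows, ordered by log2 fold change) in the 2 PPDO libraries (blue) and in the ductal-like cells of the 2 primary libraries (orange), on a log axis of CPM, with circles for library 1 and squares for library 2. No PPDO value overlaps with the ductal-like values of the same gene, from WNT10A (39.6 and 34.4 against 0.116 and 0.240 CPM) to FZD5 (11.6 and 8.98 against 550 and 742 CPM). This held for 38 of all 40 tested genes, so it does not set the called genes apart.

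The ligand WNT10A was nearly absent from primary ducts and was at 39.6 CPM in PPDO 1 and 34.4 CPM in PPDO 2, against 0.116 and 0.240 CPM in the ductal-like cells. Its log2 fold change was 8.23 ± 0.30 (SE, FDR = 0.000367, edgeR), and 77.1% of its UMIs came from the 3′ extension. Counted on the annotated features only, the log2 fold change was 6.17. WNT6 was at 21.3 and 20.6 CPM in PPDO and at 0.487 and 0.560 CPM in the ducts (log2 fold change 5.77 ± 0.21, FDR = 0.000365, edgeR). WNT6 and WNT10A are neighbours on chromosome 15 (120901471 to 120917359 and 120925204 to 120939032, Sscrofa11.1 in RefSeq), 7845 bases apart. The extension features of WNT6 and WNT10A are named as 7 and 10 kb long, and whether reads of this interval belong to WNT6 or to WNT10A was not tested. WNT7B, a ligand of epithelia, was at 38.7 and 54.0 CPM in PPDO against 4.45 and 3.001 CPM in ducts (4.06 ± 0.38, FDR = 0.00235, edgeR). It was the ligand with the highest level in ductal-like cells of primary pancreas 1 after WNT9A, while in primary pancreas 2 both WNT2B (8.68 CPM) and WNT9A (3.76 CPM) were above it.

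WNT3 and WNT3A, closely related ligands that activate β-catenin signalling, were higher as well. WNT3 was at 13.0 and 17.0 CPM in PPDO and 0.765 and 0.680 CPM in ducts (log2 fold change 4.81 ± 0.31, FDR = 0.00104, edgeR). WNT3A was at 6.28 and 7.32 CPM against 0.209 and 0.200 CPM (5.48 ± 0.33, FDR = 0.000913, edgeR). The medium supplies WNT3A protein, and these UMIs count the transcripts of the pig cells. WNT5A, WNT7A and RSPO1 had 1, 1 and 2 UMIs in all ductal-like cells together, and 1144, 1000 and 1367 UMIs in PPDO. The ratio of the pooled levels was 138 for WNT5A (95% counting interval 24.8 to 5469), 121 for WNT7A (21.7 to 4781) and 82.7 for RSPO1 (22.8 to 683). The ductal-like cells did not include the unnamed cluster with TCN1 and LGR5, which held 7 and 2 UMIs of WNT7A and none of WNT5A or RSPO1. With that cluster counted as ductal the WNT7A ratio would be much lower, and the pooled ratio was not computed anew. The test was rerun with that cluster added, and WNT7A was still called higher. Its call was kept under every other alternative in which it was tested, though in the main fit it could only be called higher. In each of the PPDO libraries these genes stayed low, with 1.49 and 2.66 CPM of WNT5A, 2.03 and 1.49 CPM of WNT7A and 2.28 and 2.60 CPM of RSPO1. WNT8B, WNT10B, WNT11 and WNT16 passed the test at levels of at most 1.99 CPM in any PPDO library and at most 0.840 CPM in ducts. Each of these 4 calls depended on single libraries. WNT8B, WNT10B and WNT11 lost the call without PPDO 1 (FDR = 0.192, 0.103 and 0.182) and without PPDO 2 (FDR = 0.0736, 0.0911 and 0.0852). Without primary pancreas 1 WNT8B and WNT16 lost it (FDR = 0.115 and 0.131), and without primary pancreas 2 WNT11 did (FDR = 0.0855).

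Of the ligands at 10 CPM or more in the fibroblast-like cells of primary pancreas 1, WNT6 and WNT5A were thus higher in PPDO, and WNT5B, WNT2B and WNT9A were not called. WNT5B was at 1.40 and 1.28 CPM in PPDO and 2.02 and 1.72 CPM in ducts (log2 fold change -0.05 ± 0.32, FDR = 0.908, edgeR). WNT2B was at 3.08 and 2.63 CPM against 3.57 and 8.68 CPM (-0.60 ± 0.41, FDR = 0.284, edgeR). WNT9A was at 3.55 and 3.19 CPM in PPDO, and the test of WNT9A changed with the primary library, with a log2 fold change of 0.37 (FDR = 0.267, edgeR) without primary pancreas 1 and -1.65 (FDR = 0.00744, edgeR) without primary pancreas 2. RSPO2, RSPO3 and RSPO4 had at most 0.140 CPM in PPDO and at most 0.520 CPM in ducts, with no call. Of the stromal genes, WNT6 is thus the ligand that had over 10 CPM both in smooth muscle and pericyte-like cells and in PPDO. The fibroblast marker list summed to 9.15 and 8.09 CPM in PPDO and 13.7 and 8.60 CPM in the ductal-like sums, with none of its 9 genes at 0 in any of the 4 sums. The smooth muscle and pericyte list summed to 99.0 and 104 CPM in PPDO and 86.2 and 83.5 CPM in ducts. Of this list NOTCH3 made 74.8 and 79.3 CPM in PPDO against 18.3 and 22.1 CPM, while MYLK was at 13.6 and 14.3 CPM against 51.7 and 55.9 CPM and ACTA2 at 0.233 and 0.0953 CPM against 1.90 and 0.800 CPM. The schwann list was higher in PPDO, at 3701 and 3554 CPM against 1183 and 1453 CPM, of which ERBB3 alone made 3636 and 3499 CPM against 816 and 1055 CPM. Of the other genes of this list, CDH19 was at 0.0266 and 0.0191 CPM in PPDO against 0.185 and 0.0800 CPM in ducts, and SOX10 was at 6.80 and 6.22 CPM against 16.3 and 26.5 CPM. The B and plasma cell list, at 1801 and 2008 CPM against 555 and 575 CPM, was nearly all CD79A. The endothelial list was lower in PPDO, at 24.0 and 19.8 CPM against 117 and 63.6 CPM in ducts, and so was the acinar list, at 37.6 and 41.9 CPM against 566 and 392 CPM. The myeloid list was at 29.96 and 25.3 CPM in PPDO against 5.29 and 5.32 CPM, of which CD68 made 19.4 and 15.7 CPM against 0.626 and 0.160 CPM. The part of such RNA in the results was not tested.

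With all PPDO cells, the receptor that marked the ducts was the gene with the largest fall among the frizzleds. In the ductal-like PPDO cells alone, given below, the log2 fold change of FZD2 was more negative than that of FZD5. FZD2 was near the floor in those cells, where 3 UMIs would make 0.290 and 0.466 CPM. The sizes of these falls can therefore not be ranked there. FZD5 was at 11.6 and 8.98 CPM in PPDO, against 550 and 742 CPM in ducts, a log2 fold change of -5.51 ± 0.20 (FDR = 0.000365, edgeR). FZD5 had a UMI in 3.54% of 8824 and 2.48% of 7327 PPDO cells after thinning and in 27.4% and 23.3% before it. FZD2 went from 5.61 and 7.68 CPM in ducts to 0.312 and 0.221 CPM in PPDO (-4.17 ± 0.33, FDR = 0.00157, edgeR). FZD8 went from 9.67 and 8.60 CPM to 0.827 and 1.01 CPM (-2.87 ± 0.30, FDR = 0.00306, edgeR), with 98.4% of its UMIs from the 3′ extension. All PPDO values of these 3 receptors lay below the ductal-like values, where 38 of the 40 tested genes had PPDO values on one side. The calls of these 3 receptors held with each library left out. FZD7 was at 4.11 and 3.58 CPM in PPDO (-1.29 ± 0.20, FDR = 0.00794, edgeR) and FZD3 at 23.8 and 23.7 CPM (-0.88 ± 0.21, FDR = 0.0266, edgeR), and both lost the call without PPDO 1 (FDR = 0.0558 and 0.131) and without PPDO 2 (FDR = 0.0685 and 0.119). FZD6 stayed at 34.8 and 39.1 CPM in PPDO against 44.8 and 40.7 CPM in ducts (0.23 ± 0.20, FDR = 0.380, edgeR), and its sign turned with library size scaling (-0.21). FZD6 was thus the frizzled with the highest level in PPDO, and FZD5 that of the ducts.

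FZD10 was at 2.77 and 0.823 CPM in PPDO and 8.32 and 7.44 CPM in ducts (log2 fold change -1.71 ± 0.61, FDR = 0.0792, edgeR), and without PPDO 1 it passed the test (FDR = 0.0270). LRP6 was at 63.5 and 62.1 CPM in PPDO (-0.68 ± 0.12, FDR = 0.0120, edgeR) and lost the call without PPDO 1 (FDR = 0.111) and without PPDO 2 (FDR = 0.102). LRP5 was at 56.6 and 47.2 CPM in PPDO (-0.19 ± 0.18, FDR = 0.425, edgeR), and with library size scaling it passed (FDR = 0.0369). Both co-receptors were thus at over 40 CPM in PPDO and in ducts.

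**Figure D3:**
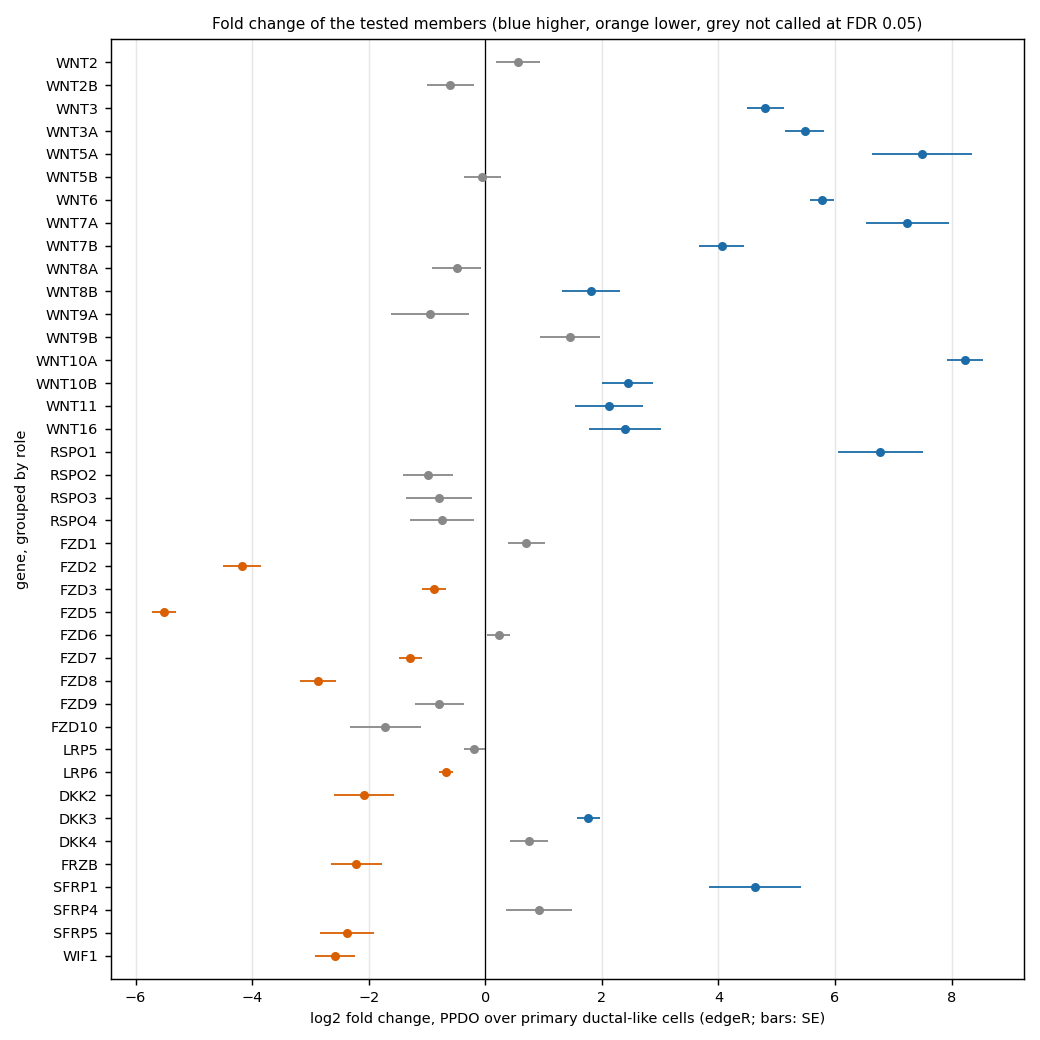
Log2 fold change of the 40 tested genes, PPDO over primary ductal-like cells, with the SE as bars, grouped by role from ligands at the top to antagonists at the bottom; blue is higher, orange lower and grey not called at an FDR of 0.05. The bars of WNT5A, WNT7A and RSPO1 rest on 1, 1 and 2 UMIs in ducts. All 11 called ligands lie right of 0 and all 5 called frizzleds left of it. Of these ligands, WNT5A, WNT7A and WNT16 passed the filter on low counts only through PPDO, so their side of 0 was set in advance.

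The antagonists were split. SFRP1 was at 3.28 and 5.83 CPM in PPDO and at 0.371 and 0.0800 CPM in ducts (log2 fold change 4.62 ± 0.78, FDR = 0.0106, edgeR). DKK3 was at 19.0 and 18.0 CPM against 6.07 and 9.00 CPM (1.77 ± 0.19, FDR = 0.00335, edgeR), the only antagonist at over 10 CPM in both PPDO libraries. SFRP1 and DKK3 kept the call with each library left out. SFRP5 fell from 10.8 and 13.3 CPM to 2.43 and 0.976 CPM (-2.38 ± 0.47, FDR = 0.0164, edgeR). FRZB went from 1.99 and 3.84 CPM to 0.362 and 0.530 CPM (-2.21 ± 0.43, FDR = 0.0162, edgeR), and WIF1 from 0.997 and 1.28 CPM to 0.146 and 0.130 CPM (-2.58 ± 0.34, FDR = 0.00526, edgeR). FRZB and WIF1 lost the call without PPDO 1 (FDR = 0.0959 and 0.0538) and without PPDO 2 (FDR = 0.0603 and 0.0607). DKK2 was called too (-2.07 ± 0.52, FDR = 0.0313, edgeR) on 10 UMIs in PPDO and 7 in ducts, where 0.0927 CPM in primary pancreas 1 was below the 0.246 CPM that free RNA alone would give. The call was lost with DESeq2 (FDR = 0.203), with no filter on low counts (FDR = 0.0816) and with the replicate number as a block (FDR = 0.0746), and DKK2 was not tested with single PPDO or primary libraries left out. DKK4 had 1.68 and 1.18 CPM in PPDO and was not called, and SFRP4 had 0.103 CPM in each PPDO library.

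In the PPDO cells of the ductal-like cluster alone, 8 of 30 tested genes were higher and 6 lower than in primary ductal-like cells, and 20.8% and 21.4% of all 17172 genes of that fit. WNT10A (log2 fold change 6.87), WNT7B (4.16), WNT6 (3.44), WNT3A (2.65), WNT3 (1.80), DKK3 (2.55), WNT7A and RSPO1 were called higher in these cells, and FZD5 (-4.28), FZD2 (-6.32) and FZD8 (-3.75) lower. In this smaller fit WNT10A, WNT6, WNT3A, WNT7A and RSPO1 passed the filter on low counts only through PPDO. They could only be called higher. FZD2 passed only through the ducts and could only be called lower. SFRP5 was not called there (-0.49, FDR = 0.672, edgeR).

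Other genes of the pathway were taken from a list of 53, of which 49 were matched and 48 tested. In PPDO 21 of them were higher and 13 lower, where 22.8% and 20.9% of all genes were, and their median log2 fold change was 0.44. These counts include genes that passed the filter on low counts through a single group. KREMEN2 and SOSTDC1 could thus only be called higher, and TRABD2B, CER1 and DAAM2 only lower. Without PPDO 1 the counts were 15 and 7 of 47, where 13.3% and 11.0% of all genes were called. With library size scaling they were 17 and 17, where 14.0% and 29.5% were, and with the PPDO cells of the ductal-like cluster alone 14 and 11 of 44, with a median of -0.17. Among the R-spondin receptors and their E3 ligases, 4 of 5 were higher. LGR6 was at 71.1 and 84.95 CPM in PPDO and 0.139 and 0.240 CPM in ducts (9.20 ± 0.29, FDR = 0.000315, edgeR), LGR5 at 25.4 and 11.6 CPM against 2.99 and 3.16 CPM (3.03 ± 0.42, FDR = 0.00601, edgeR), and LGR4 at 111 and 100.3 CPM against 54.3 and 71.1 CPM (1.21 ± 0.13, FDR = 0.00323, edgeR). The LGR5 call was lost when the unnamed cluster described above was counted as ductal (log2 fold change 1.39, FDR = 0.0535), and with the PPDO cells of the ductal-like cluster alone those of LGR5 (1.64, FDR = 0.0555) and LGR4 (0.39, FDR = 0.110) were lost. Of 7 tested nuclear effectors and targets, 2 were higher and 3 lower. LEF1, a nuclear partner of β-catenin, was at 33.6 and 26.4 CPM in PPDO against 1.95 and 1.52 CPM (4.53 ± 0.29, FDR = 0.000997, edgeR), and TNFRSF19, a receptor gene of this list, was higher too (1.46 ± 0.14). The partner TCF7L2 was lower, at 259 and 224 CPM against 527 and 521 CPM (-0.67 ± 0.15, FDR = 0.0251, edgeR), as were the co-activators BCL9 (-1.66 ± 0.24) and PYGO1 (-4.63 ± 0.37). Of 12 genes of the cytoplasmic relay, 1 was higher and 3 were lower. The higher gene was AXIN2, a common target, at 27.1 and 23.3 CPM against 17.9 and 11.2 CPM (1.21 ± 0.33, FDR = 0.0418, edgeR). The lower genes were CTNNB1, which encodes β-catenin, at 124 and 129 CPM against 315 and 301 CPM (-0.84 ± 0.16, FDR = 0.0158, edgeR), APC (-0.64 ± 0.12) and DVL3 (-0.79 ± 0.17). The calls of AXIN2, CTNNB1, APC, DVL3 and TCF7L2 were all lost without PPDO 1 and without PPDO 2 (FDR = 0.0816 to 0.158, edgeR), and that of AXIN2 also with library size scaling (FDR = 0.0728). DAAM2, AXIN2, CTNNB1, APC, DVL3, TCF7L2, BCL9 and TNFRSF19, and in what follows KREMEN1, RYK and LRP4, are named after their values were seen. In the PPDO cells of the ductal-like cluster alone, AXIN2 was at -0.80 (FDR = 0.175, edgeR) and TNFRSF19 was lower (-0.62, FDR = 0.0480, edgeR).

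Of 7 further surface proteins of the pathway, PTK7, RYK, ROR2, LRP4, KREMEN1 and KREMEN2 were higher in PPDO and ROR1 was lower, the KREMEN proteins being receptors of DKK. KREMEN2 had 4 and 0 UMIs in the ductal-like cells, so its call could only be higher. The calls of KREMEN1 and LRP4 were lost without PPDO 1 (FDR = 0.0589 and 0.0555, edgeR), and that of KREMEN1 also without PPDO 2 (FDR = 0.0565) and with library size scaling (FDR = 0.107). ROR2 was at 89.7 and 51.7 CPM in PPDO and 2.27 and 2.24 CPM in ducts (log2 fold change 5.40 ± 0.34, FDR = 0.000970, edgeR). ROR1, its paralogue, was at 0.817 and 0.774 CPM in PPDO against 980 and 1226 CPM in ducts (-9.98 ± 0.19, FDR = 0.000315, edgeR). Of 4 genes for the secretion and inactivation of WNT proteins, NOTUM was higher and TRABD2B lower, both at no more than 1.16 CPM in any of the 4 sums. TRABD2B was at 0.0399 and 0.0381 CPM in PPDO, so its call could only be lower. WLS and PORCN did not pass the test. WLS, which carries WNT proteins to the membrane, was at 179 and 199.7 CPM in PPDO and 270 and 303 CPM in ducts (-0.14 ± 0.14, FDR = 0.468, edgeR), though with library size scaling it was lower (-0.60, FDR = 0.0330). PORCN, the acyltransferase of WNT proteins, was at 1.91 and 1.92 CPM against 1.99 and 2.48 CPM (0.24 ± 0.27, FDR = 0.511, edgeR).

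The cells of PPDO differed among themselves in the ligands they carried. PPDO fell into 9 clusters, given here by number and leading genes, namely 0 (IGFBP6, SERPINE2), 1 (CXCL14, HMCN1, LGR6), 2 (TIMP3, ADM, VEGFA), 3 (GPNMB, BBOX1, MMP3), 4 (CENPF, TOP2A), 5 (PLXDC2, SPINK5, KLK7), 6 (DTL, UHRF1, MCM3), 7 (SPP1, CFD, WFDC2, TCN1) and 8 (S100A8, S100A12), the last with 34 and 87 cells. WNT3 was highest in cluster 1, at 28.7 CPM in PPDO 1 and 36.8 CPM in PPDO 2, and was at 1.69 and 1.45 CPM in cluster 5 and 1.55 and 2.64 CPM in cluster 7. WNT3A was at 13.2 and 13.0 CPM in cluster 1, at 13.3 and 13.8 CPM in cluster 6, and at 0.324 and 0.321 CPM in cluster 5. Cluster 1 was thus the highest for WNT3 in both libraries, and clusters 1 and 6 had nearly equal levels of WNT3A.

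WNT6 was at 41.4 and 37.7 CPM in cluster 1, at 32.6 and 29.1 CPM in cluster 6 and at 0.778 and 1.98 CPM in cluster 5. WNT10A was at 64.3 and 54.1 CPM in cluster 1, at 56.4 and 42.6 CPM in cluster 0 and at 1.36 and 2.04 CPM in cluster 5. Cluster 5, whose leading genes SPINK5 and KLK7 are known from keratinising epithelium, was thus low for WNT3, WNT3A, WNT6 and WNT10A in both libraries. LGR6 and LEF1 were also highest in cluster 1, with 185 and 199 CPM of LGR6 and 75.4 and 63.1 CPM of LEF1, and LGR6 is among the genes that lead this cluster. SFRP1 was highest in cluster 6, whose leading genes take part in DNA replication, at 7.83 and 13.6 CPM, and was at 0.195 and 0.482 CPM in cluster 5.

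**Figure D4:**
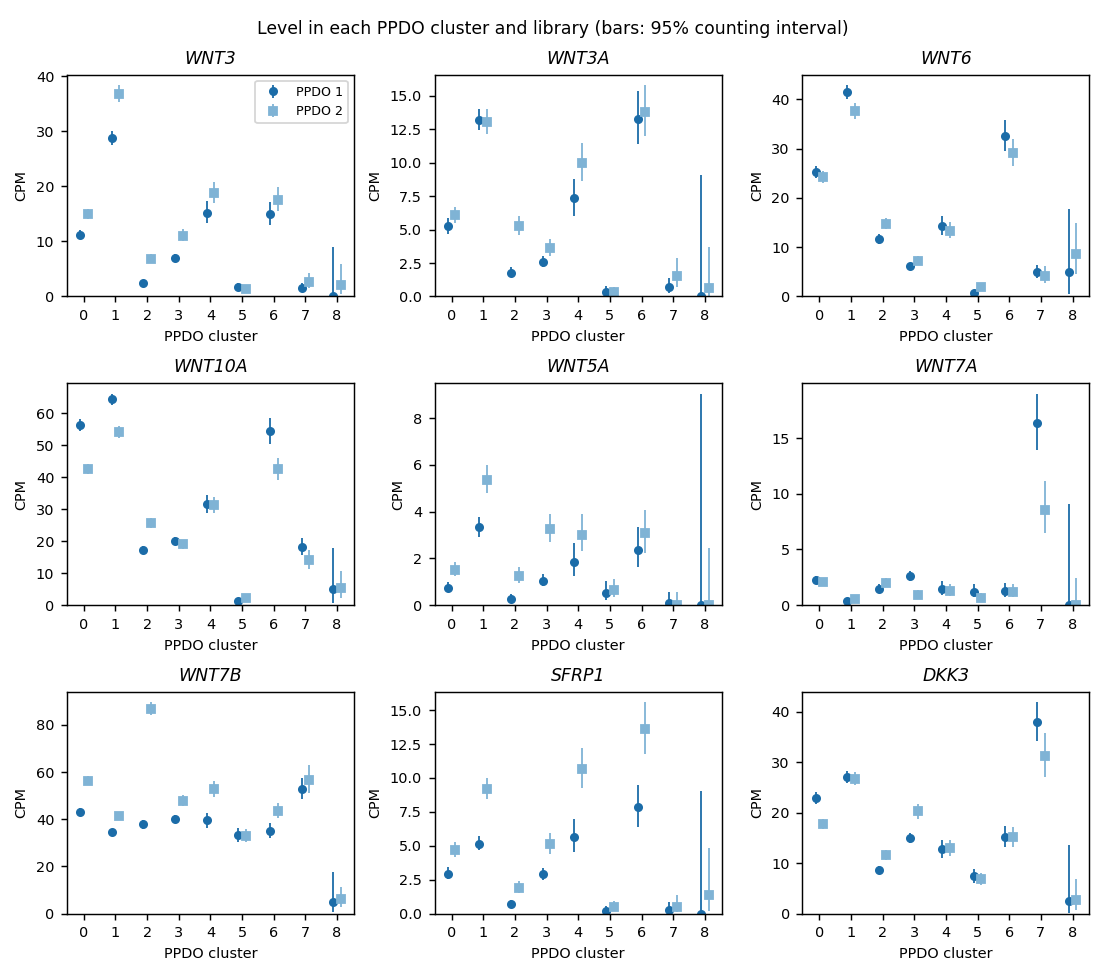
Level in CPM of 9 genes (panels) in the PPDO clusters 0 to 8 (x axis), with PPDO 1 as dark circles, PPDO 2 as light squares and 95% counting intervals as bars. WNT3, WNT3A, WNT6 and WNT10A fall to 0.321 to 2.04 CPM in cluster 5, WNT7A stands at 16.3 and 8.54 CPM in cluster 7, and WNT7B stays at 33.0 CPM or more outside cluster 8.

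WNT7A and WNT7B followed other patterns. WNT7A was at 16.3 and 8.54 CPM in cluster 7, the ductal-like cluster of PPDO, and at 0.323 and 0.552 CPM in cluster 1. TCN1 is the only gene shared by the leading genes of this cluster and those of the unnamed primary cluster in which WNT7A was found. WNT7B was spread over clusters 0 to 7, from 33.1 to 52.8 CPM in PPDO 1 and from 33.0 to 86.9 CPM in PPDO 2. Its highest cluster was cluster 7 in PPDO 1 and cluster 2, led by the hypoxia-responsive genes ADM and VEGFA, in PPDO 2, so the libraries did not share it. FZD5 was highest in cluster 7 in both libraries, at 26.9 and 25.6 CPM, and DKK3 was highest there as well, at 38.0 and 31.2 CPM. FZD10 was at 7.09 and 2.35 CPM in cluster 1 and at 0.387 and 0.155 CPM in cluster 7.

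Several of the 44 genes lie beside each other in the genome. In RefSeq Sscrofa11.1, WNT9A and WNT3A are 25632 bases apart on chromosome 2 and WNT3 and WNT9B 27849 bases apart on chromosome 12, while WNT1 and WNT10B overlap on chromosome 5. WNT6 and WNT10A were both higher in PPDO, and both had their highest level in cluster 1 and their lowest in cluster 5 in both libraries. WNT9A and WNT9B were not called (FDR = 0.304 and 0.0794, edgeR), while their neighbours WNT3A and WNT3 were higher. How the counting treated reads of the interval that WNT1 and WNT10B share was not tested.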

How the data were processed

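Droplet-based single-cell RNA sequencing data of 2 PPDO and 2 primary pancreas libraries were used, grouped by sample title. The deposited tables hold unnormalised UMI counts of each feature in each barcode, made by the authors with Cell Ranger 7.1.0 (matrix header) against an in-house pig annotation, and the other deposited tables hold feature and barcode names, a unit recorded as other. The submitters' processing notes name Sscrofa11.1. Free RNA was not removed. Isoform and extension features were summed per gene. The 44 genes, the pathway list and the marker lists were chosen with earlier results of these data known.

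Cells were kept by limits taken from the study (mitochondrial UMIs at most 3% in PPDO and under 8% in primary pancreas, at most 9000 features, at least 1000, 400 or 800 features, 3000 UMIs in primary pancreas 2), assuming that title numbers are the sample numbers of the methods. The study used a lower limit of 600 for one PPDO line, which the labels do not assign, so 1000 was used for both and 600 was an alternative. Scrublet removed 89 and 154 primary cells. Scanpy 1.11.5 clustering (2000 variable genes without the 44, 20 components, 15 neighbours, Leiden at resolution 0.5) was followed by naming from marker lists. A marker passed at 2-fold over the other clusters in primary pancreas, but at 1.25-fold in PPDO. After the clusters had been seen, the endocrine lists were pooled, the mast list was not used and 1 in 3 markers of a matched list had to pass in primary clusters.

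Counts were summed per library and tested with edgeR 4.0.16 (TMM, filterByExpr, quasi-likelihood, group only, false discovery rate 0.05). With 2 against 2, an exact permutation test cannot pass, so no such test is given. Depth ranged from 87043513 to 366263520 UMIs per library. On counts simulated after this comparison, with 23764 genes and a dispersion of 0.1, edgeR called 120 of 200 genes changed by 2 on the log2 scale and 11 unchanged genes. The changed genes were few and none was of the lowest counts, whereas 43.7% of all genes were called in the data. These shares therefore do not describe the real comparison or its genes of low level. Genes got full values by class where they reached 10 CPM in both libraries of a named class of 20 or more cells, or in both PPDO libraries, which held for 18 genes. DESeq2 1.42.0, other scalings, filters, left-out libraries and other cell sets were alternatives. No sequence was printed because none was given.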

Additional observations from a re-analysis of the deposited data

Results flagged for a closer look

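Outside the comparisons, the eGFP transgene feature had 10390 UMIs in primary pancreas 2, against 164, 16 and 0 UMIs in primary pancreas 1, PPDO 1 and PPDO 2. Groups of 2 libraries were too small to look for single libraries that lie far from the others.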

How the results depend on the processing

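Of the 24 called genes, 13 kept direction and call under every alternative in which they were tested. Among the 13 are WNT5A, WNT7A and RSPO1, which passed the filter of the main fit only through PPDO. For these genes a kept direction carries little weight. The share of all called genes that kept the call was not counted. With single libraries left out, the calls ranged from 14 to 23 for the 44 genes, from 22 to 36 for the other pathway genes and from 4787 to 10731 for all genes. With only the ductal-like PPDO cells, 30 of the 44 genes were tested and 14 of these were called, where 7243 of all 17172 genes were. In a single primary library 18 to 24 genes reached 10 CPM in a class, the higher count being without primary pancreas 2, against 15 in both libraries. Of the called genes with values in the text, AXIN2 (-0.80), LRP4 (-0.35) and TNFRSF19 (-0.62, past the test) turned sign with ductal-like PPDO cells, and the other turns were of genes that were not called. FZD1 was at -0.76 with ductal-like PPDO cells, and PORCN at -0.020 with thinned sums, -0.53 with ductal-like PPDO cells and -0.22 with library size scaling, where FZD6 was at -0.21. RSPO3 was at 0.029 without the ductal cluster led by OSGIN1, RND1 and EREG. WNT5B was at 0.018 with no filter, between -0.28 and 0.16 with single libraries left out, 0.21 with thinned sums, 0.22 with ductal-like PPDO cells and 0.022 without that ductal cluster. WNT9A was between -1.65 and 0.37 with single libraries left out, passing the test at -1.65 without primary pancreas 2 only. The cause was not tested. With the replicate number as a block, 22 of the 40 tested genes (12 higher, 10 lower) and 8303 of all 23510 genes were called. The numbers are only names here, since same-numbered libraries did not deviate together (r = -0.0006, 2 pairs). Alternatives that added the unnamed LGR5 cluster to the ducts, left out the EREG cluster or scaled by library size alone were chosen after seeing the data. A comparison with ductal-like clusters found in both primary libraries was not run, because 0 of 5 clusters were shared. Genes under 1 CPM rest on few UMIs in ductal-like cells.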

Other observations

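In the primary smooth muscle and pericyte-like cells, LGR6, a receptor of R-spondins, was at 10.4 and 16.4 CPM, against 0.139 and 0.240 CPM in the ductal-like cells, and LGR4 was at 54.6 and 140 CPM against 54.3 and 71.1 CPM. LEF1 was highest of the primary classes in T and NK-like cells, at 167 and 310 CPM, where AXIN2 was at 39.0 and 27.1 CPM and RSPO2 was found.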
